A study of Mus musculus with 8 samples.

Results

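The NF-kappaB inhibitors Nfkbia, Nfkbib, Nfkbie and Tnfaip3 were followed in mouse embryonic fibroblasts that were WT or eIF4E-KI (here KI), the latter carrying a non-phosphorylatable form of the cap-binding protein eIF4E. The members were taken as every probe annotated to these 4 symbols on a mouse bead array, which gave 5 of 25697 probes and 4 of 16593 named genes. Nfkbie had 2 probes and the other genes 1 each. The groups were total cytoplasmic RNA of WT, total cytoplasmic RNA of KI, heavy polysomal RNA of WT and heavy polysomal RNA of KI, with 2 arrays in each, so 8 arrays in all. Heavy polysomal RNA is the pool of mRNAs carrying more than 3 ribosomes. All the cells came from embryos of day 14.5, had been immortalised by passage and grew in DMEM with 10% serum. Each genotype was represented by a single line, on which the isolation was done as 2 experiments, so the p-values measure spread between experiments, and genotype and line cannot be told apart. Total and polysomal RNA with the same source name were read as coming from the same culture.

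IkappaB proteins bind NF-kappaB dimers and hold them in the cytoplasm. When the IkappaB kinase phosphorylates them they are ubiquitinated and degraded, which releases NF-kappaB to the nucleus, where it activates inflammatory and survival genes and also the genes of its own inhibitors. Nfkbia encodes IkappaB-alpha, the fast feedback inhibitor, Nfkbib encodes IkappaB-beta, which is degraded and resynthesised more slowly, and Nfkbie encodes IkappaB-epsilon, which is induced with a delay. Tnfaip3 encodes A20, a ubiquitin-editing enzyme that restrains the signal upstream of the kinase. eIF4E binds the mRNA cap in the complex that recruits the ribosome. The study named Nfkbia among the mRNAs it picked from these same arrays. The direction of Nfkbia in polysomal RNA, its polysomal minus total values and their rarity among probes are therefore not independent evidence.

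These promoters are shown because Nfkbia, Nfkbie and Tnfaip3 shared the order WT above KI in polysomal RNA, and that of Nfkbib because it did not. Each window holds the 250 bases before the transcription start, read on the gene's own strand 5′ to 3′, from RefSeq on GRCm38.p6, and all 4 genes matched by symbol. Capitals mark matches on either strand to the kappaB consensus, the sequence that NF-kappaB dimers bind.
Nfkbia, chr12:55492648-55492897, minus strand: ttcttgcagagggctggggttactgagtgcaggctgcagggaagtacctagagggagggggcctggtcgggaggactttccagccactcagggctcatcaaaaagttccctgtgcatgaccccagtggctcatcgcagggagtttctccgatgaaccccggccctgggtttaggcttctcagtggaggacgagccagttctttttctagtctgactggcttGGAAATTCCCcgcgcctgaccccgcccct
Nfkbie, chr17:45555450-45555699, plus strand: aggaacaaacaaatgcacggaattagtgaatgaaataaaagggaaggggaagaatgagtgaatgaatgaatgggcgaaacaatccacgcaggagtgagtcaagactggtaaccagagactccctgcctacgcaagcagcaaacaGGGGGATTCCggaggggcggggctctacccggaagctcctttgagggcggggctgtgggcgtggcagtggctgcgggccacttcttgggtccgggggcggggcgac
Tnfaip3, chr10:19015411-19015660, minus strand: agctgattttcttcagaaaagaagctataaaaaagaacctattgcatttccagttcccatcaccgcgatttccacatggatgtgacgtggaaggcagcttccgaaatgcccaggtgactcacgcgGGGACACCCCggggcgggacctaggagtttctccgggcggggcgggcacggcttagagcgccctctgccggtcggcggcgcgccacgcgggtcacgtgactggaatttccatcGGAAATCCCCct
Nfkbib, chr7:28766645-28766894, minus strand: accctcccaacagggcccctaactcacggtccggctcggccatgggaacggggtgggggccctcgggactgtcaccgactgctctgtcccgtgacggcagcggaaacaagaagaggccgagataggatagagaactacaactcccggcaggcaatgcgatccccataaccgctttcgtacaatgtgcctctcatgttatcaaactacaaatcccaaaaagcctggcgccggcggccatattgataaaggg
The Nfkbia match lay from 29 to 20 bases before the start and the Nfkbie match from 106 to 97 bases before it. The Tnfaip3 window held 2 matches, from 125 to 116 and from 12 to 3 bases before the start, which did not overlap, and a second annotated Tnfaip3 start had 0. The Nfkbib window also had 0. Of all 32536 annotated windows of this length, 7.28% held at least 1 match. A match is a description of these letters and says nothing of binding in these cells.

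The deposited values were taken as log2 signal, and array medians ran from 7.69 to 7.73. Signals under 7.97 were treated as the bottom of the range, where a gene has no measurable level and a difference is understated. This limit was the mean over arrays of the median plus 3 scaled deviations of the probes below it. By array it ran from 7.84 to 7.92 in total RNA and from 8.04 to 8.07 in polysomal RNA. By the limits of their own arrays, Nfkbib lay at the bottom on every polysomal array, and Tnfaip3 in KI polysomal replicate 1 (8.061 against 8.068). The brighter Nfkbie probe lay above its own limits in WT total replicate 2 and KI total replicate 2, though under 7.97. Of 9 fibroblast markers on the array, 8 exceeded that limit in at least 1 group, Lum being the exception, and the mean level of the 9 was 9.87 to 9.89 in WT total, 10.03 to 10.18 in KI total, 10.28 to 10.35 in WT polysomal and 10.46 to 10.57 in KI polysomal RNA. The part of that order in the results was not tested. The leukocyte genes Ptprc, Adgre1, Lyz2 and Itgam and all 4 endothelial markers lay at the bottom in every group, while Cd14 read 9.12 to 9.89. The probe of the targeted gene, Eif4e, which cannot show the mutation, read 8.66 and 8.44 in WT polysomal RNA and between 7.67 and 7.82 on the other 6 arrays. Across probes, WT total replicate 2 was closer to KI total replicate 2 (correlation 0.982) than to the other WT total array (0.970). Results that rest on WT total RNA are therefore given with and without single arrays.

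Nfkbia had the brightest probe of the set (ILMN_3001914, chromosome 12), with a mean above that of 88.1% of probes. In WT it read 10.13 and 9.24 in total RNA and 10.64 and 10.14 in polysomal RNA, replicate 1 first. In KI it read 9.31 and 9.48 in total RNA and 9.21 and 9.27 in polysomal RNA. WT polysomal RNA was thus the highest group, and the KI polysomal arrays lay close together at the low end. The WT polysomal arrays lay 0.50 apart, a gap exceeded by 4.47% of the tested probes. WT total replicate 2 lay among the KI arrays, 0.88 below WT total replicate 1, a gap exceeded by 5.11% of the tested probes on those arrays. By group mean the order was WT polysomal (10.39), WT total (9.68), KI total (9.40) and KI polysomal (9.24). The step from WT total to KI total was within the gap between the WT total replicates.

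Tnfaip3 (ILMN_1252202, chromosome 10) was dimmer and followed a similar course. It read 8.48 and 7.82 in WT total RNA and 7.67 and 7.77 in KI total RNA. Its polysomal signals were 8.87 and 8.83 for WT, then 8.06 and 8.17 for KI. The WT polysomal arrays stood above all others, KI total RNA lay at the bottom of the range, and WT total replicate 2 again sat with the KI total arrays. The order of means was WT polysomal (8.85), WT total (8.15), KI polysomal (8.12) and KI total (7.72), where WT total and KI polysomal RNA differed by less than the gap between the WT total replicates (0.66).

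Nfkbie was read by ILMN_2690551 and by the dimmer ILMN_1238752, both on chromosome 17. The brighter probe read 9.003 and 7.89 in WT total RNA and 7.76 and 7.96 in KI total RNA. Its polysomal signals were 8.27 and 8.41 for WT, then 7.80 and 7.71 for KI. Both KI groups lay at the bottom of the range by their means, and WT total replicate 2 also read under 7.97. What was measured of Nfkbie was therefore its signal in WT polysomal RNA and in WT total replicate 1. WT total replicate 1 gave the highest value, and only 2.57% of tested probes had a larger gap between the WT total replicates than its 1.11. The second probe lay at the bottom by its mean in all 4 groups and exceeded the limit only in WT total replicate 1, at 8.18.

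Nfkbib (ILMN_2612007, chromosome 7) varied least, spanning 0.43 over the 8 arrays. It read 8.12 and 8.24 in WT total RNA and 8.31 and 8.32 in KI total RNA. Its polysomal signals were 7.94 and 7.90 for WT, then 8.05 and 7.92 for KI. Here the division was by type of RNA: the total RNA arrays all lay above the polysomal ones, and WT polysomal RNA was at the bottom of the range. By the limits of their own arrays, both KI polysomal signals were at the bottom too.

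**Figure D1:**
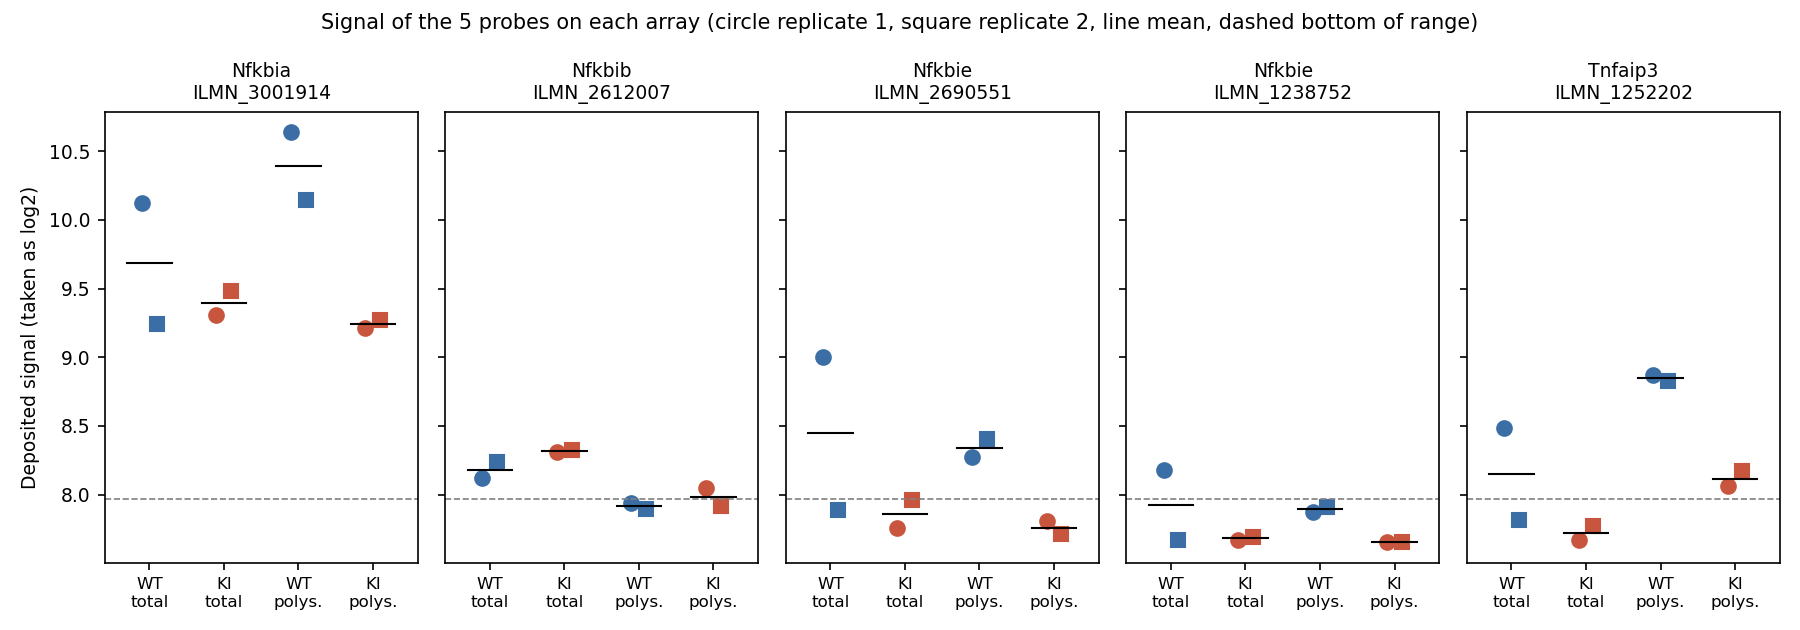
Signal (taken as log2) of the 5 probes on each of the 8 arrays by group, WT in blue and KI in red, with circles for replicate 1, squares for replicate 2, a line at each group mean and a dashed line at the bottom of the range (7.97). Nfkbia, Tnfaip3 and the brighter Nfkbie probe read higher on both WT polysomal arrays than on both KI ones, the dimmer Nfkbie probe lies under the dashed line in both groups, and WT total replicate 2 sits near the KI total arrays for these probes.

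KI and WT were first compared in total RNA. None of the 5 probes passed in limma at an adjusted p below 0.05, where 0.07% of the 12848 tested probes did, and 0 had an unadjusted p under 0.05, against 8.72% of tested probes. Nfkbia read -0.29 ± 0.31 (SE, 2 arrays per group; limma adjusted p = 0.847), and its 95% interval ran from -1.05 to 0.48. Tnfaip3 read -0.43 ± 0.21 (limma adjusted p = 0.655), the brighter Nfkbie probe -0.59 ± 0.34 (0.704) and Nfkbib 0.14 ± 0.09 (0.737). KI total arrays were clear of the WT ones for 2 of 5 probes, Nfkbib higher and Tnfaip3 lower, against 31.4% of tested probes. For Tnfaip3 WT total replicate 2 (7.82) and both KI total arrays (7.67 and 7.77) lay under 7.97, where values have no order. The WT total arrays decided the differences between KI and WT. Without WT total replicate 2 the differences were -0.73 for Nfkbia, -0.76 for Tnfaip3 and -1.15 for Nfkbie, and without WT total replicate 1 they were 0.15, -0.10 and -0.03, with limma adjusted p between 0.0602 and 0.998 over all the alternatives tried for these 3 probes. In bulk RNA, fewer cells carrying an mRNA and less of it per cell cannot be told apart.

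In heavy polysomal RNA Nfkbia and Tnfaip3 had larger negative values than in total RNA, while Nfkbie and Nfkbib did not, and no member passed. For Tnfaip3 that order is not settled. Its KI total signals lay at the bottom of the range, and its total RNA difference was -0.76 without WT total replicate 2. Nfkbia read -1.15 ± 0.31 in KI against WT (limma unadjusted p = 0.0105, adjusted p = 0.271), which is a 2.22-fold lower signal if the scale is log2, and its 95% interval ran from -1.92 to -0.39. Tnfaip3 read -0.74 ± 0.21 (limma unadjusted p = 0.0139, adjusted p = 0.291), with an interval from -1.26 to -0.21. Neither passed over all probes, and 0.117% of tested probes did, while these 2 of 5 had an unadjusted p under 0.05, as had 11.1% of tested probes. A larger negative difference was seen for 0.483% of tested probes in the case of Nfkbia and 1.47% in that of Tnfaip3. The brighter Nfkbie probe read -0.58 ± 0.34 (limma adjusted p = 0.63) and the dimmer -0.24 ± 0.16 (0.715). The KI arrays lay at the bottom of the range for the brighter probe, and all 4 polysomal arrays did for the dimmer, whose values there have no order. Nfkbib read 0.06 ± 0.09 (0.941), with an interval from -0.15 to 0.28.

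Both KI polysomal arrays lay below both WT ones for Nfkbia, Tnfaip3 and the brighter Nfkbie probe. By gene this was 3 of 4, while 28.9% of tested probes lay lower in this way. The dimmer Nfkbie probe cannot be ordered and is left out. The count includes Nfkbia, which the study picked from these arrays, so it is not independent evidence. Over the 16 alternatives tried, the Nfkbia difference ran from -1.40 to -0.90 with limma adjusted p from 0.11 to 0.819, and that of Tnfaip3 from -0.79 to -0.68 with 0.063 to 0.806, so each was negative in all of them and passed in 0.

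**Figure D2:**
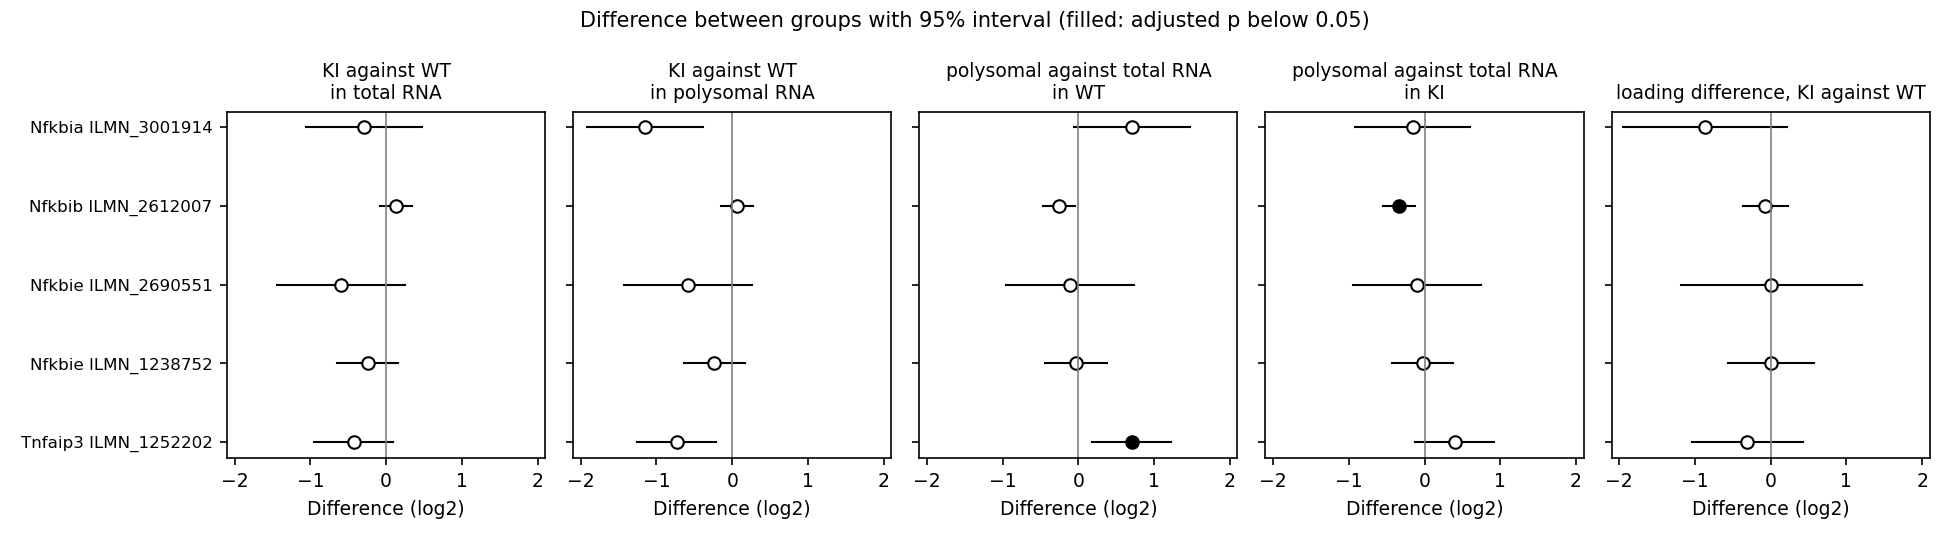
Difference between groups (log2) for each probe in the 5 comparisons, with the 95% limma interval and filled points where the adjusted p was below 0.05. The intervals of Nfkbia and Tnfaip3 lie below 0 for KI against WT in polysomal RNA, and the filled points are Tnfaip3 in WT and Nfkbib in KI for polysomal against total RNA.

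Polysomal and total RNA were then compared within each line, where many mRNAs differ. In WT 1 of 5 probes passed, against 37.5% of tested probes. It was Tnfaip3, which rose by 0.70 ± 0.21 in polysomal RNA (limma adjusted p = 0.0463), where 20.8% of tested probes passed as higher. The call ended in 11 of the 17 alternatives, with limma adjusted p from 0.00461 to 0.162, and the value was 0.37 without WT total replicate 2. Nfkbia read 0.71 ± 0.31 (0.126), and with culture as a block it passed as higher (limma adjusted p = 0.0198), while its difference was 0.27 without WT total replicate 2 and 1.15 without WT total replicate 1, over alternatives whose adjusted p ran from 0.0185 to 0.456. Nfkbib read -0.26 ± 0.09 (limma adjusted p = 0.0584) and the brighter Nfkbie probe -0.11 ± 0.34 (0.848). The Nfkbie cultures went opposite ways, with -0.73 in replicate 1 and 0.52 in replicate 2. The brighter probe passed as higher without WT total replicate 1 (0.45, limma adjusted p = 0.0499) and as lower without WT total replicate 2 (-0.66, 0.0292), so a single WT total array set its direction. The types of RNA did not overlap for 3 of 5 probes in WT, against 74% of tested probes.

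In KI 1 of 5 probes passed, against 36.9% of tested probes. It was Nfkbib, which fell by 0.33 ± 0.09 (limma adjusted p = 0.0291), where 15.9% of tested probes passed as lower. Its KI polysomal signals lay under the limits of their own arrays. The call ended with culture as a block (limma adjusted p = 0.0634) and in 9 of 17 alternatives in all, with adjusted p from 0.0224 to 0.157. Nfkbia read -0.16 ± 0.31 (0.736) and Tnfaip3 0.40 ± 0.21 (0.196). With either WT total array left out, which enters here only through the shared spread, Tnfaip3 passed at the same 0.40 (limma adjusted p = 0.0214), in 2 of 17 alternatives. The types of RNA did not overlap for 4 of 5 probes, against 72.6% of tested probes, and the 4 included the dimmer Nfkbie probe, whose KI values at the bottom of the range have no order.

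The difference between polysomal and total RNA in each culture shows how the members parted. Nfkbia read 0.51 and 0.90 in the WT cultures and -0.10 and -0.22 in the KI cultures, so that its polysomal signal exceeded its total signal in both WT cultures and in neither KI culture. That pattern of signs was seen for 0.693% of tested probes. Since the study picked Nfkbia from these arrays, this share is not independent evidence. Tnfaip3 gave 0.39 and 1.01 for WT, then 0.39 and 0.40 for KI, above 0 in all 4 cultures. Its total signal lay under 7.97 in both KI cultures and in WT replicate 2, so those differences are understated. Nfkbib gave -0.18 and -0.35 for WT, then -0.26 and -0.40 for KI, below 0 in all 4. Its polysomal signal lay under 7.97 in both WT cultures and in KI replicate 2, where the fall is likewise understated. In KI replicate 1 that signal lay under the limit of its own array (8.05 against 8.07). The median over tested probes lay between -0.0045 and 0.042 in these cultures.

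**Figure D3:**
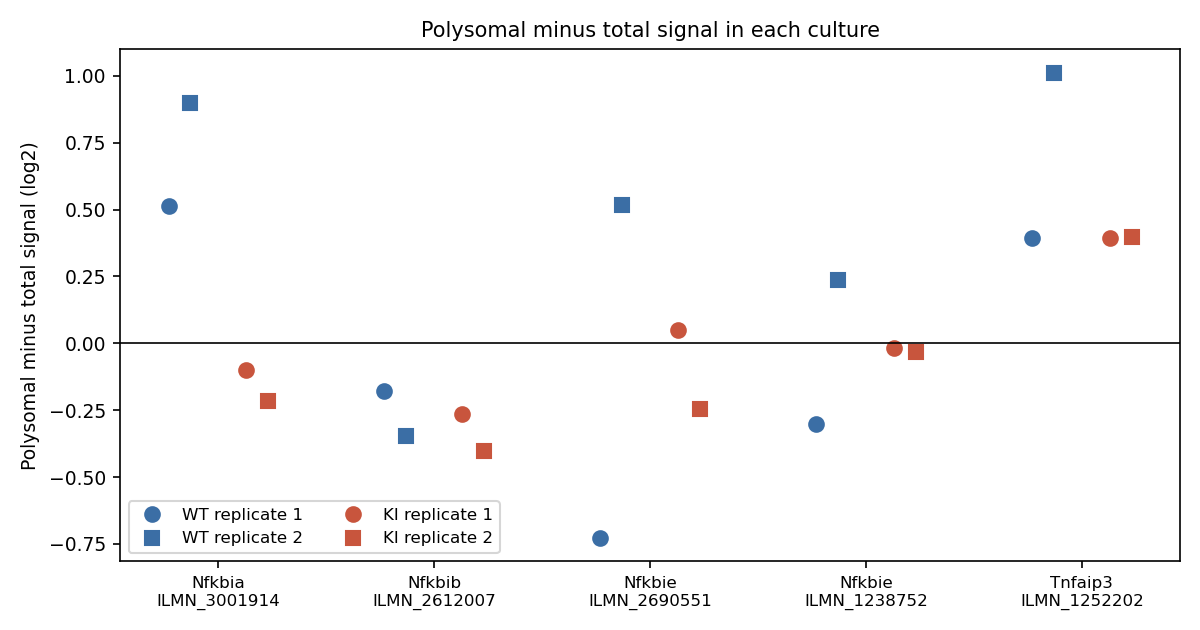
Polysomal minus total signal (log2) of each probe in each of the 4 cultures, WT in blue and KI in red, with circles for replicate 1 and squares for replicate 2. Nfkbia lies above 0 in both WT cultures (0.51 and 0.90) and below 0 in both KI cultures, Tnfaip3 above 0 and Nfkbib below 0 in all 4. Some of the Tnfaip3 and Nfkbib signals behind these points lay under 7.97.

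Polysomal loading, the KI polysomal minus total difference less that of WT, was -0.86 ± 0.44 for Nfkbia (limma unadjusted p = 0.0976, adjusted p = 1), with an interval from -1.94 to 0.22. That fit does not pair the arrays of a culture. With culture as a block the Nfkbia value was the same, its SE was 0.18 (limma unadjusted p = 0.00787), and 0 of 12848 probes passed. A larger negative loading difference was seen for 0.521% of tested probes, a share that is likewise not independent evidence for an mRNA picked from these arrays. It was -0.42 without WT total replicate 2 and -1.30 without WT total replicate 1, with limma adjusted p from 0.429 to 1 over the 16 alternatives. Tnfaip3 read -0.31 ± 0.30, Nfkbib -0.07 ± 0.12 and the brighter Nfkbie probe 0.0067 ± 0.48 (limma adjusted p = 1 for each). Each of these draws in part on signals at the bottom of the range. The Tnfaip3 value was 0.026 without WT total replicate 2, and Nfkbie ran from -0.55 to 0.56 as single WT total arrays were left out. In limma 0 of 12848 probes passed, or 0%, with 301 at an unadjusted p under 0.05 (2.34%). KI cultures were clear of WT cultures for 1 of 5 probes, Nfkbia, against 28.5% of tested probes. With 2 cultures against 2, an exact two-sided permutation test cannot go below p = 0.333.

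Genes with courses like those of the members were ranked by the root mean square difference of mean-centred values over the 8 arrays, among 8831 other genes, each by its brightest probe. For Nfkbia the nearest were Gstt3 (0.149), Zcchc18 (0.165), Ctsk (0.188), Enpp5 (0.225) and Prl2c1 (0.225), and Tnfaip3 ranked 11th (0.244). The spread of Nfkbia about its own mean was 0.511 on that measure. For Tnfaip3 the nearest were Ifngr1 (0.0921), Enpp5 (0.0944), Caml (0.107), Ica1 (0.112) and Rpl7l1 (0.136), and Nfkbia ranked 184th. For Nfkbie they were BC028528 (0.0989), Tmem35a (0.126), Rapsn (0.130), Rpl24 (0.144) and Tmbim4 (0.1499), while Nfkbia ranked 395th and Tnfaip3 547th. The arrays share lines, cultures and types of RNA, so the ranks are descriptive.

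The rest of the pathway was described from lists by role, each gene by its brightest tested probe. In KI against WT polysomal RNA 0 genes of any list passed, where 0.113% of the 8832 tested genes did. The median over all of these was -0.01, and 54% of them read lower. Among other inhibitors and feedback regulators, 17 of 24 were tested, 10 read higher and 7 lower, and the median was 0.0092, beside -0.66 for the 4 inhibitors. Tollip, an adaptor that dampens receptor signalling, read 0.84 ± 0.20 (limma adjusted p = 0.237). Tnip1, a ubiquitin-binding partner of A20, read -0.48 ± 0.17 (0.397). In polysomal RNA the inhibitors outside the 4 members thus had no common direction. Both lists were chosen with earlier results of these data known, and the 4 include Nfkbia, which the study picked from these arrays. The contrast of their medians, here and in the other comparisons, is therefore not independent evidence.

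The 3 tested NF-kappaB subunits had a median of -0.63 in polysomal RNA. Nfkb2, which encodes the p100 precursor, itself an inhibitor until processed, read -0.86 ± 0.26 (limma adjusted p = 0.305). Rela, the main activating subunit, read -0.63 ± 0.40 (0.678), with 11.84 in KI polysomal replicate 2 against 12.92 in replicate 1. Of 21 kinases and adaptors 10 read higher and 11 lower, with a median of -0.04. The kinase gene Map3k14, of the non-canonical pathway, read -0.73 ± 0.12 (0.128) and the ubiquitin ligase gene Birc3 -0.58 ± 0.10 (0.128), the latter with both KI polysomal arrays under 7.97. Signalling components were therefore split in direction by sign. In limma 5 had an unadjusted p under 0.05 as lower and 1 as higher, where 11.1% of tested probes had such a p in either direction. Those lower include Birc2, which the study picked from these arrays.

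Genes of IkappaB ubiquitination and degradation, 6 of 12 tested, had a median of 0.02, with -0.30 ± 0.19 for the conjugating enzyme gene Ube2d3 (limma adjusted p = 0.668) and -0.06 ± 0.10 for Btrc (0.983), which encodes the substrate receptor for phosphorylated IkappaB. Receptors, 10 of 11 tested, had a median of -0.03, with -0.56 ± 0.14 for the death receptor gene Fas (0.238) and -0.21 ± 0.09 for Il1rap (0.476), a co-receptor for interleukin-1. Of 21 NF-kappaB activated genes 15 read lower and 6 higher, with a median of -0.25, where 54% of all tested genes read lower. The chemokine gene Cxcl12 read -1.08 ± 0.27 (0.252) and Cxcl5 -0.67 ± 0.17 (0.260). Cxcl5 lay under 7.97 on both KI polysomal arrays (7.65 and 7.61), and Fas and Il1rap did in KI polysomal replicate 2. That list holds 4 mRNAs the study picked from these arrays, Ccl2, Ccl7, Mmp3 and Vegfc, and the kinase and adaptor list another, Birc2, so their direction is not independent evidence.

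In total RNA 0 listed genes passed, where 0.0793% of tested genes did. The medians of the lists ran from -0.26 for the subunits to -0.03 for the receptors, the 4 inhibitors having -0.36 and all tested genes -0.04. Among the other inhibitors Tnip2, a second A20 partner, read -0.34 ± 0.07 (limma adjusted p = 0.286) and Tollip 0.45 ± 0.20 (0.625). For loading 0 passed, and 13 of 17 other inhibitors read higher and 4 lower, where 44% of all tested genes read lower. Their median was 0.14, beside -0.19 for the 4 inhibitors and 0.03 for all tested genes. In that list Nfkbiz, a nuclear IkappaB protein, read 0.57 ± 0.38 and Tnip2 0.24 ± 0.10 (limma adjusted p = 1 for each).

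In polysomal against total RNA the other inhibitors moved in both directions, 2 higher and 4 lower of 17 in WT, where 38.3% of tested genes passed, and 2 higher and 3 lower in KI, where 37.5% did. Cyld, a deubiquitinase that opposes kinase activation, rose by 1.80 ± 0.36 in WT (limma adjusted p = 0.0136) and 1.98 ± 0.36 in KI (0.0105). Tax1bp1, an adaptor for A20, rose by 1.90 ± 0.23 (0.0034) and 2.00 ± 0.23 (0.0032). Nkiras2, which encodes a Ras-like protein that binds IkappaB, fell by 1.53 ± 0.25 (0.00745) and 1.45 ± 0.25 (0.00899). With arrays left out in turn, the Cyld call was lost without either WT polysomal array in WT (limma adjusted p up to 0.0727) and without KI polysomal replicate 2 in KI (0.0639). That of Nkiras2 was lost in WT without the polysomal array of replicate 2 (0.0518), as it was in KI (0.0526), and that of Tax1bp1 was kept in each case. These genes were named because their called differences were the largest of their list. Their size is therefore not a comparison with the members.

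**Figure D4:**
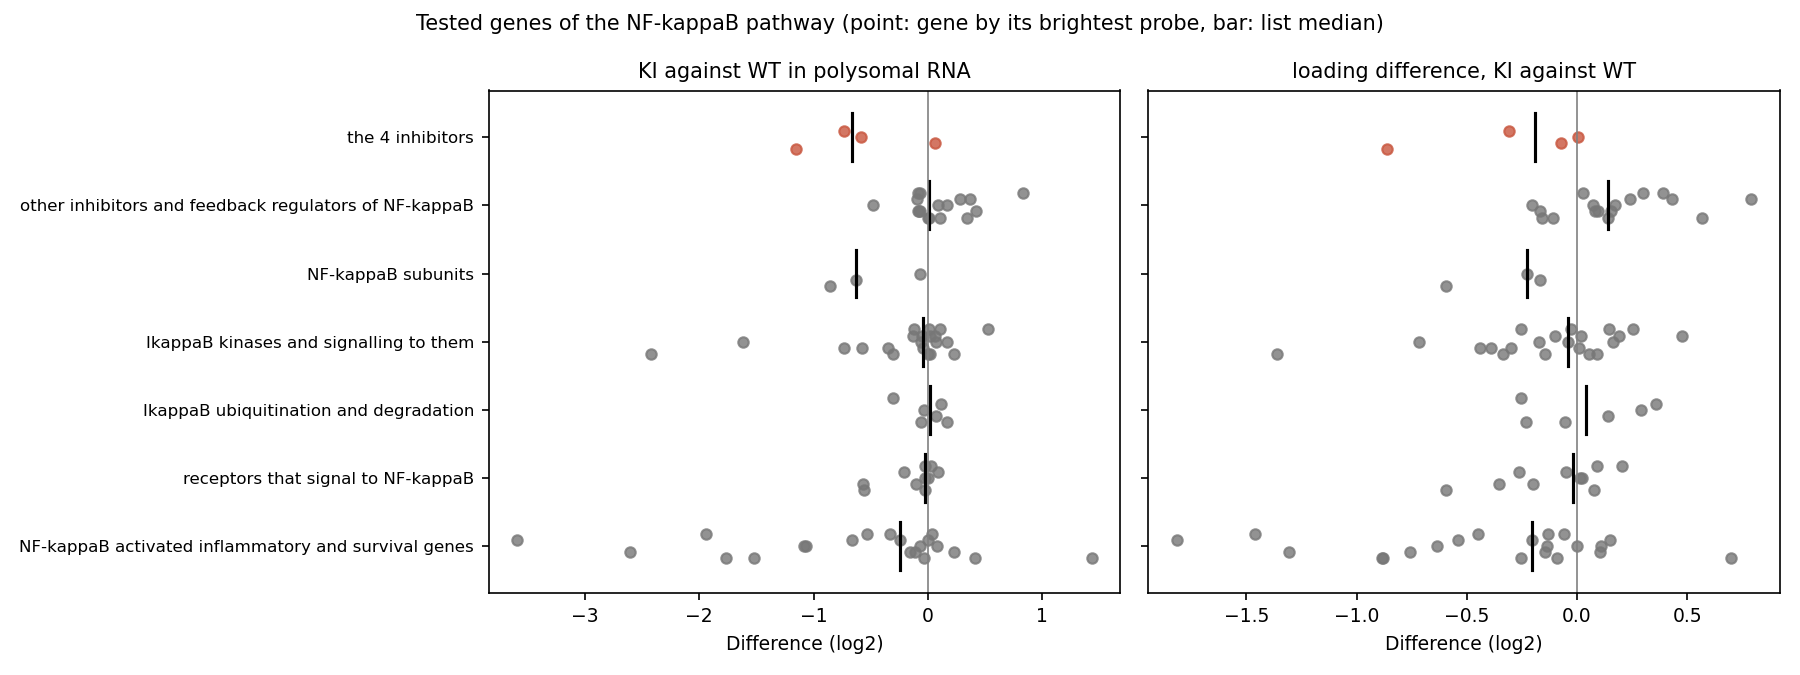
Difference (log2) of each tested gene of the pathway lists for KI against WT in polysomal RNA (left) and for polysomal loading (right), each gene by its brightest probe, with the 4 inhibitors in red, other genes in grey and a bar at each list's median. In polysomal RNA 3 of the 4 inhibitors lie below 0 around a median of -0.66, while the other inhibitors spread to both sides of 0. The 4 include Nfkbia, which the study picked from these arrays.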

How the data were processed

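Total and polysomal RNA of 2 lines was labelled with biotin, 250 ng a sample, and read on 8 arrays. The authors deposited processed values that were taken as log2 signal, since medians lay between 7.69 and 7.73 and maxima between 15.15 and 15.80. The submitters' processing notes name lumi, while no source used here gives its version, the log base, the correction for background or the scaling. A second deposited table held the same values in 8 columns under unlabelled names (equal within 1e-06) and was not used. Of the probes, 23978 had 1 symbol, 0 several and 1719 none, and 23962 were matched to RefSeq by gene ID. Probes with a mean above 7.73, the median of probe means, were tested, which kept all 5 member probes. Group means (4) were fitted to the 8 arrays with limma 3.58.1, under R 4.3.3 and with no block (4 residual and 1.8 prior degrees of freedom), two-sided, with Benjamini-Hochberg adjustment over 12848 probes. Fits were tested on simulated data. Deviations of total and polysomal RNA of the same culture, which share a source name, correlated at 0.563 in KI and 0.038 in WT across probes. The number of arrays limits the precision. Alternatives were 1 probe per gene, no filter, other scalings, a trended prior, blocks and arrays left out. The members and lists were chosen with earlier results of these data known. Besides the members, the genes named are the called genes with the largest difference (up to 4), or the 2 with the smallest p, of each list. Those of the other inhibitors, and for polysomal RNA those of every list, are given. From polysomal against total RNA only Cyld, Tax1bp1 and Nkiras2 are given, as the largest called of their list. The next called, Pdlim2 in WT and Commd1 in KI, both fell and are not given. The study's targets, Eif4e and markers were also named.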

Additional observations from a re-analysis of the deposited data

Results flagged for a closer look

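Nfkbia had polysomal minus total values of opposite sign in the lines, neither of which passed in limma (adjusted p = 0.126 in WT and 0.736 in KI). Its polysomal signal was above its total signal in both WT cultures (0.51 and 0.90) and below it in both KI cultures (-0.10 and -0.22). The loading difference of -0.86 was tested in limma and did not pass (adjusted p = 1). With culture as a block its SE was 0.18 (limma unadjusted p = 0.00787), and the difference did not pass either. WT total replicate 2, which reads close to KI for this probe, enters that difference, which was -0.42 without that array and -1.30 without WT total replicate 1. Groups of 2 arrays are too small for a check of outlying samples. Nfkbia was among the mRNAs the study picked from these arrays, so its pattern here is not independent evidence.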

How the results depend on the processing

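The planned background correction was not run, since the second table holds the processed values. For each member probe 14 to 17 alternatives gave a value, and 358 of 400 such values, and 1128 of 1238 of other named genes, kept direction and side of the threshold. No member call changed in polysomal RNA. The cause of the changes below was not tested.

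Probes called in KI against WT total RNA numbered 9, and 16 with no filter, 67 with a trended robust prior, 0 with only the groups compared, 18 with probes above the bottom of the range (chosen after seeing the data) and 0 to 44 with arrays left out in turn. In polysomal RNA they numbered 15, then 5 with 1 probe per gene, 88, 3, 24 and 0 to 58 in the same order after that. Polysomal against total RNA gave 4812 (1903 to 5006 with arrays left out) in WT and 4744 (1875 to 5121) in KI, and loading 0 (0 to 10). Deviations of arrays with the same replicate number correlated at 0.395 between WT and KI total RNA and at 0.225 between WT and KI polysomal RNA, but these share only a number. A replicate block by number gave 12 called probes in total and 20 in polysomal RNA and passed no member there. The split in total RNA was 44.4% higher, and 54.5% after quantile normalization.

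In WT, the Tnfaip3 call of polysomal over total RNA was lost at 0.70 with no filter (limma adjusted p = 0.106), with only these groups (0.125) and with a replicate block by number (0.0503), and at 0.67 after median centring (0.0501). Nfkbib passed at -0.26 with no filter, -0.30 after quantile normalization and -0.29 after centring, and Nfkbia passed at 0.71 with a replicate block by culture. In KI the Nfkbib call was lost at -0.33 with only these groups, with the culture block and with probes above the bottom. Loading of the brighter Nfkbie probe was -0.016 after quantile normalization.

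With arrays left out in turn, total RNA gave -0.73 to 0.15 for Nfkbia and -0.50 to 0.0088 for the dimmer Nfkbie probe. In WT, polysomal against total RNA gave 0.37 to 1.03 for Tnfaip3, 0.27 to 1.15 for Nfkbia, -0.66 to 0.45 for the brighter and -0.29 to 0.22 for the dimmer Nfkbie probe. In KI it gave 0.34 to 0.45 for Tnfaip3, -0.40 to -0.27 for Nfkbib and -0.20 to 0.0016 for the brighter Nfkbie probe. Loading gave -0.64 to 0.026 for Tnfaip3, -0.55 to 0.56 and -0.25 to 0.26 for the Nfkbie probes. Vcp in total RNA gave -0.076 to 0.88 and Btrc in polysomal RNA -0.14 to 0.034. Signal near the bottom of the range limits Nfkbie, Nfkbib and Tnfaip3.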
